A study of Mus musculus with 6 samples.

Results

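Wif1, Sfrp1, Sfrp2, Frzb, Dkk3 and Dkkl1 encode secreted proteins of families that inhibit Wnt signalling, and their messages were followed on ribosomes of mouse cortex after chronic fluoxetine. The members are the 6 genes of that name among 18193 genes with a probe set of their own, and all 12 probe sets annotated to exactly 1 of them were used. The list was drawn up with the results of these arrays known, and Wif1 heads it because its arrays differed between the treatments. The treatment differences below are therefore descriptions, and no list of these genes was tested as a group.

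The mice were bacTRAP animals of line DU9. Their transgene places a tagged protein of the ribosome under regulatory DNA of Glt25d2, a gene now called Colgalt2 that marks a class of layer 5 pyramidal neurons. They had been backcrossed from FVB onto C57BL/6 for 3 to 5 generations, and their age is not given in the sources used here. Translating ribosome affinity purification (TRAP) recovers RNA bound to the tagged ribosomes. The fluoxetine group drank 0.167 mg/ml fluoxetine, a serotonin reuptake inhibitor used as an antidepressant, in 1% saccharine, and the vehicle group drank 1% saccharine alone, both for 15 to 18 days. Each group had 3 Affymetrix arrays, each from a separate TRAP purification of cortex, and the number of mice behind a purification is not given in the sources used here. Groups were read from the titles and from the source and treatment fields. The description field names the opposite treatment on all 6 arrays, so the arrays are called fluoxetine-titled and vehicle-titled, and every treatment difference would change sign if the description were right.

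The deposited values are GCRMA intensities on a linear scale. Median intensity lay between 23.03 and 23.45 on the 6 arrays, and between 41.4% and 41.8% of probe sets reached 50, the level the submitters advise as a filter. All 8 layer 5 markers on the array passed that filter, Colgalt2 with 986.1, 709.2 and 718.7 on the fluoxetine-titled and 890.8, 828.1 and 918.1 on the vehicle-titled arrays. Markers of interneurons (9 of 9 on the array), astrocytes (12 of 12) and oligodendrocytes (9 of 9) passed it too. In the fit across all 19073 probe sets kept, 0 passed an adjusted p of 0.05 (limma), 121 had an unadjusted p under 0.05, and the background share of calls was 0%.

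Wnt proteins are secreted ligands that bind Frizzled receptors with the co-receptors Lrp5 and Lrp6, and in the canonical branch this stabilises beta-catenin, which then acts with Tcf and Lef factors in the nucleus. Wif1 and the secreted Frizzled-related proteins Sfrp1, Sfrp2 and Frzb (also called Sfrp3) bind Wnt ligands outside the cell, the Sfrps through a domain like the ligand-binding part of Frizzled. Classical Dickkopf proteins such as Dkk1 act on Lrp5 and Lrp6 instead. Dkk3 is a divergent Dickkopf protein with a less settled role in the pathway, and Dkkl1 is a Dkk3-related protein that lacks the cysteine-rich domains of the family. In adult brain these pathways are known for roles in synapse maintenance and neurogenesis.

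Wif1 was higher on every fluoxetine-titled array than on any vehicle-titled array. Its 1 probe set, 1425425_a_at, had intensities of 49.8, 55.7 and 46.8 on fluoxetine-titled arrays 1, 2 and 3, against 29.2, 33.5 and 28.4 on vehicle-titled arrays 1, 2 and 3. The groups did not overlap, and the lowest fluoxetine-titled value was array 3 while the highest vehicle-titled one was array 2. The group means were 50.8 ± 4.53 and 30.4 ± 2.75 (SD, n = 3 each), a ratio of geometric means of 1.67. On the log2 scale the difference was 0.74, with a 95% interval from 0.42 to 1.07 in limma, and limma's adjusted p over all probe sets was 1. The difference is a description, since it is the value for which the gene was chosen. For orientation, 1.64% of all probe sets kept had every fluoxetine-titled value above every vehicle-titled one, 0.231% were at least 1.5-fold higher, and 14 had a larger positive log2 difference than Wif1. In bulk RNA of this kind, more cells with the message and more message per cell cannot be told apart.

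The intensity of Wif1 was low. It reached 50 on 1 of 6 arrays, and the probe set passed the filter through its fluoxetine-titled mean alone. On each array it stood above 52.4% to 59.3% of all probe sets. GCRMA intensities near this level depend on the background correction, and the log2 difference of Wif1 shrank to 0.052 when every intensity below 50 was raised to 50.

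Wif1 also differed by nearly the same amount in each same-numbered pair of arrays. The log2 difference was 0.77 in pair 1, 0.73 in pair 2 and 0.72 in pair 3, an SD of 0.027 over the 3 pairs. Replicate number accounted for 7.23% of the variance of its log2 values over the 6 arrays and treatment for 92.7%. The median probe set kept had 69.9% and 5.35%. These are shares of 1 total, so a gene chosen for a large treatment difference has little left for replicate number. The contrast with the median probe set is therefore not a separate result. With 1 array or 1 pair left out, the log2 difference lay between 0.67, without fluoxetine-titled array 2, and 0.81, without vehicle-titled array 2. Without fluoxetine-titled array 2 or without pair 2, the fluoxetine-titled mean was 48.3 and the probe set no longer passed the filter.

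The stretch of chromosome 10 just before the annotated start of Wif1 is shown because this is the member whose arrays separated. It covers the 250 bases at chr10:121033754-121034003 on the plus strand of GRCm38.p6 (RefSeq), written 5′ to 3′, with a match to the TATA box letters on the opposite strand in capitals.
Wif1 upstream: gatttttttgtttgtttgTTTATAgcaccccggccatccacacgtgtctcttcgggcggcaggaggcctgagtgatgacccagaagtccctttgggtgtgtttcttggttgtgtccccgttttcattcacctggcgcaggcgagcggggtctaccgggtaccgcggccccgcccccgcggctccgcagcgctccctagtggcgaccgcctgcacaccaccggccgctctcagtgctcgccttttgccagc
The window is 62.8% G and C. The letters TATAAA, searched on both strands, occur once in it, 226 bases before its end, and in 12.4% of 32851 windows of the same length in RefSeq. The letters CTTTGAT of Tcf and Lef factors, TGACGTCA of CREB and TGANTCA of AP-1 do not occur in this window on either strand, and they are found in 3.21%, 1.55% and 6.75% of windows. A match of letters is not evidence of a bound site, and its absence says nothing of the factor.

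**Figure D1:**
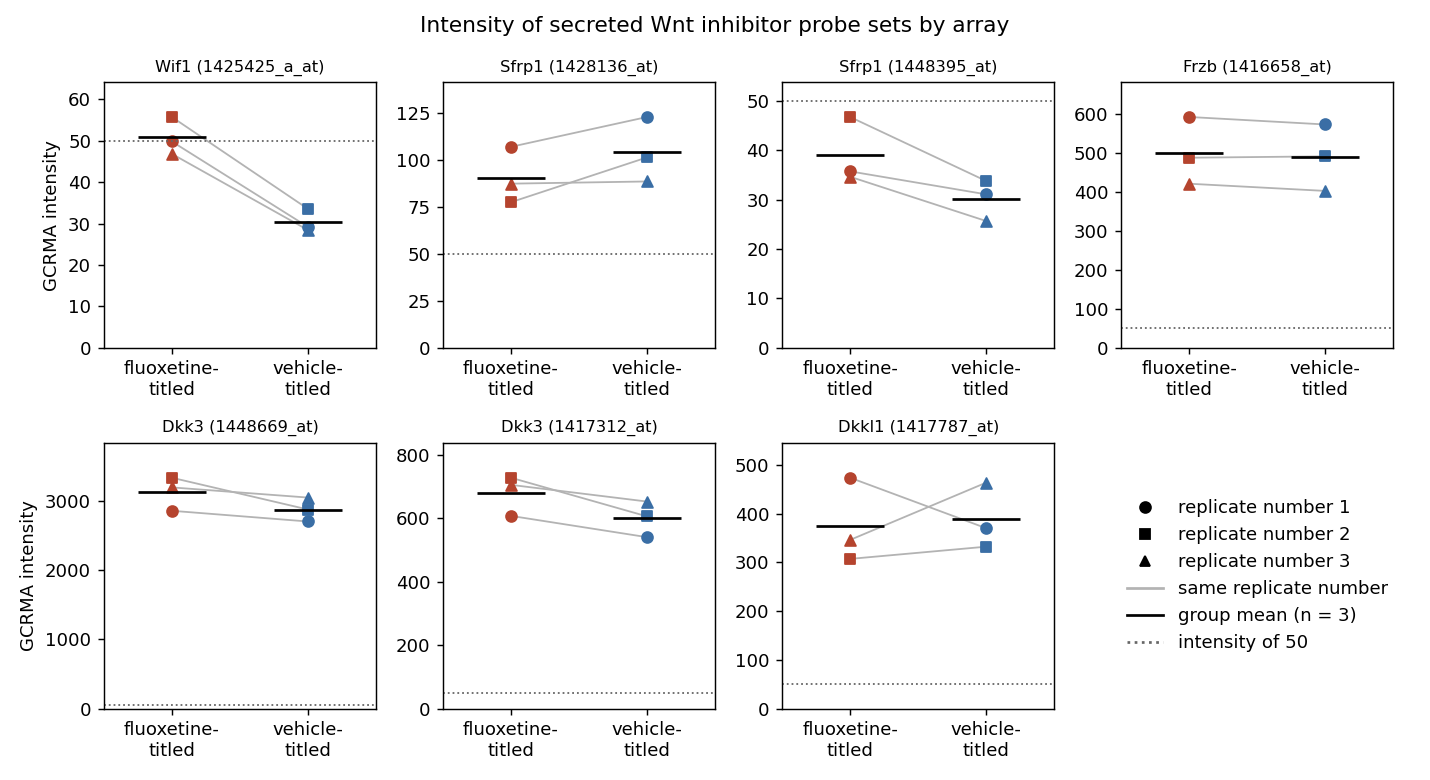
GCRMA intensity (linear axis from 0) of 7 probe sets on the 3 fluoxetine-titled and 3 vehicle-titled arrays, with grey lines joining arrays of equal replicate number, black bars at the group means and a dotted line at an intensity of 50. Wif1 (46.8 to 55.7 against 28.4 to 33.5) and the dim second Sfrp1 probe set (34.7 to 46.8 against 25.7 to 33.8) separate by group, while the other 5 overlap.

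Sfrp1, which binds Wnt ligands and is made by several cell types of the developing and adult brain, gave different answers by probe set. Its brightest probe set, 1428136_at, had 107.0, 77.5 and 87.4 on the fluoxetine-titled arrays, against 122.9, 101.4 and 88.6 on the vehicle-titled arrays. The groups overlapped, although the fluoxetine-titled array was the lower one in all 3 pairs, as it was for 13.4% of probe sets kept. The log2 difference was -0.20 ± 0.18 (SE, limma adjusted p = 1), with a 95% interval from -0.63 to 0.23, and it was smallest in pair 3 (-0.019). The second probe set, 1448395_at, had 35.8, 46.8 and 34.7 on the fluoxetine-titled arrays and 31.1, 33.8 and 25.7 on the vehicle-titled arrays. Those groups did not overlap, in the opposite direction, with a log2 difference of 0.37 and a ratio of 1.29. It lay below 50 on all arrays and was not tested, and 1.48% of all 45037 probe sets had every fluoxetine-titled value above every vehicle-titled one. Here the sign of the difference depends on which probe set is read.

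The other 3 Sfrp1 probe sets were near the bottom of the scale. Over the 6 arrays 1416594_at had 14.9 to 16.4 and 1438620_x_at 5.41 to 5.88. Probe set 1460187_at had 8.37 to 8.51 on the fluoxetine-titled arrays, all below the lowest vehicle-titled value of 8.52. The same held for 6.08% of all probe sets without a filter, a share that includes the probe sets kept (2.01% of those). Log2 differences of the 3 dim Sfrp1 probe sets lay between -0.12 and -0.028.

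Sfrp2, a close relative of Sfrp1, was not measured above the filter. Its probe set 1448201_at had 19.7, 18.8 and 16.4 on the fluoxetine-titled arrays and 16.1, 20.8 and 17.0 on the vehicle-titled arrays. The groups overlapped, and the log2 difference was 0.029. Both group means were under 50, so the gene did not enter the test.

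Frzb, known in the mouse dentate gyrus as an activity-dependent inhibitor of adult neurogenesis, had close values on arrays of equal replicate number. Probe set 1416658_at had 592.2, 487.7 and 421.0 on fluoxetine-titled arrays 1, 2 and 3, against 572.9, 491.2 and 402.5 on vehicle-titled arrays 1, 2 and 3. Arrays numbered 1 were highest and arrays numbered 3 lowest in both groups, which overlapped fully. The group means were 500.3 ± 86.3 and 488.8 ± 85.2 (SD, n = 3 each). The log2 difference was 0.034 ± 0.19 (SE, limma adjusted p = 1), with a 95% interval from -0.41 to 0.48. With the replicate number as a block the SE was 0.099 and the interval ran from -0.20 to 0.27. Replicate number took up 98.7% of its variance over the arrays. A limma F test of replicate number, added after these values were seen, gave Frzb an adjusted p of 0.0708, while 14.8% of probe sets kept passed 0.05 in that test. No label says what a replicate number stands for. The second Frzb probe set, 1448424_at, had 30.8, 25.1 and 18.9 on the fluoxetine-titled arrays and 19.1, 30.9 and 26.5 on the vehicle-titled arrays, below 50 throughout, and it did not show the order seen in the first.

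Dkk3, which many neurons of the cortex express, was slightly higher on the fluoxetine-titled array of each pair by both of its probe sets. Probe set 1448669_at had 2860, 3338 and 3198 on the fluoxetine-titled arrays, against 2705, 2878 and 3051 on the vehicle-titled arrays. Probe set 1417312_at had 606.9, 727.1 and 704.6 on the fluoxetine-titled arrays, against 539.8, 605.2 and 652.0 on the vehicle-titled arrays. The groups overlapped for both, since fluoxetine-titled array 1 lay below vehicle-titled array 3. Their log2 differences were 0.12 ± 0.13 and 0.18 ± 0.14 (SE, limma adjusted p = 1 for both), with 95% intervals from -0.18 to 0.43 and from -0.15 to 0.52. In the background, 10.9% of probe sets kept were higher in all 3 pairs. Both probe sets read the same message on the same arrays and are not independent of each other. Both were lowest in pair 1, with pair means of 2783, 3108 and 3124 for the first and 573.3, 666.2 and 678.3 for the second, and the limma F test of replicate number gave adjusted p of 0.502 and 0.301.

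Dkkl1, best known from the sperm acrosome of the testis, varied between arrays without a common direction. Its probe set 1417787_at had 473.5, 307.0 and 345.9 on the fluoxetine-titled arrays and 369.9, 332.1 and 463.5 on the vehicle-titled arrays. The groups overlapped fully, with the highest value on fluoxetine-titled array 1 and the lowest on fluoxetine-titled array 2. The log2 difference was 0.36 in pair 1, -0.11 in pair 2 and -0.42 in pair 3. Over all arrays it was -0.060 ± 0.21 (SE, limma adjusted p = 1), with a 95% interval from -0.55 to 0.43.

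**Figure D2:**
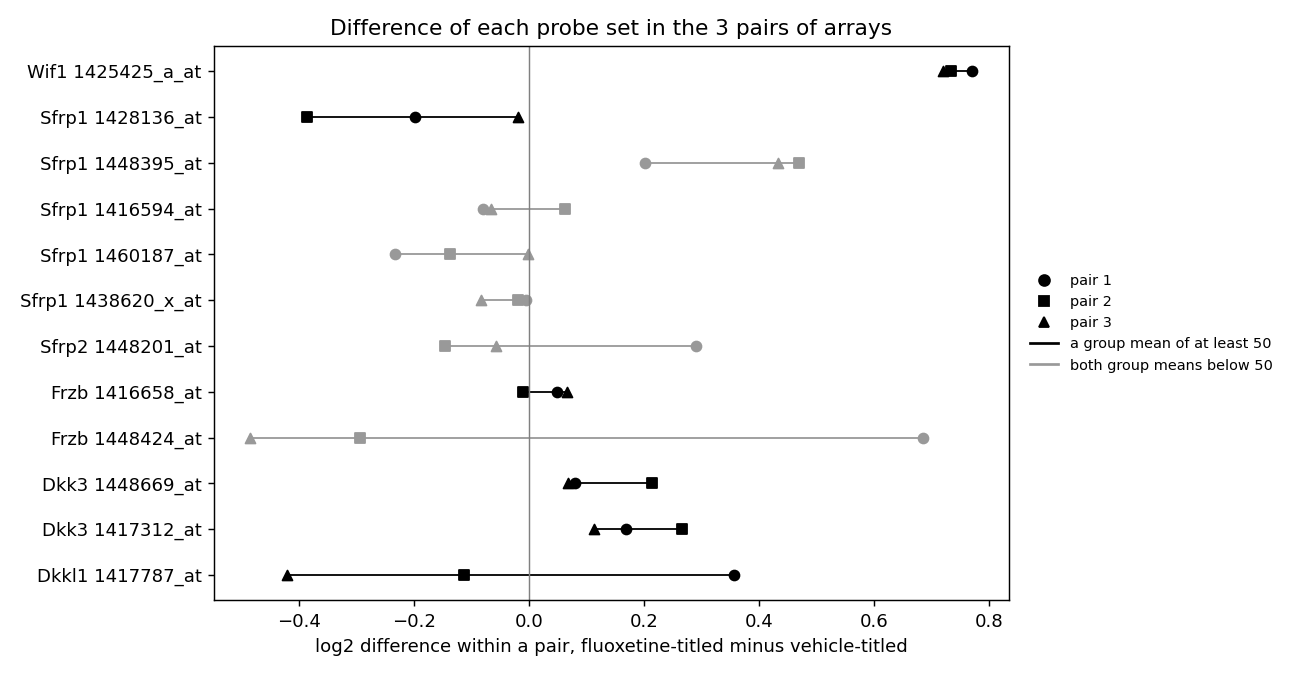
Log2 difference, fluoxetine-titled minus vehicle-titled, within each of the 3 pairs of arrays (marker shapes) for all 12 probe sets, black where a group mean reached 50 and grey where both stayed below. Wif1 lies between 0.72 and 0.77 in every pair, and Dkkl1 spreads from -0.42 to 0.36.

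Of the 12 probe sets, 6 passed the filter and cover 5 of the 6 genes. The probe set closest to the filter from above was that of Wif1, with a larger group mean of 50.8, and the closest from below was the second Sfrp1 probe set, with 39.1. Of the 6, 1 (Wif1) had all its fluoxetine-titled values above and 0 had all of them below the vehicle-titled values, against 1.64% and 2.01% of probe sets kept. Wif1 was listed for that separation and passed the filter only through its fluoxetine-titled mean. Its count is therefore not a result to set against those shares. None of the 6 passed an adjusted p of 0.05 in either direction in limma, against a background of 0%, and none did with the replicate number as a block.

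The rest of the Wnt pathway was read from 7 lists of 97 genes by role, chosen by general knowledge and not by how they moved. There were 95 on the array, 52 of which passed the filter, and 0 of the 52 passed the adjusted threshold in either direction. Their median log2 difference was 0.0063, against -0.0068 over 10830 genes, and single genes ran from -0.30 to 0.28. Every value of the fluoxetine-titled arrays lay above the vehicle-titled ones for 0 of the 52, where the background is 1.63% of genes. Every value lay below them for 2 (Axin1 and Myc), or 3.85%, where it is 1.98%. Myc passed the filter only through its vehicle-titled mean (49.3 against 55.1), so this count is not a result to set against that share. In all 3 pairs 17.3% of the 52 were higher and 13.5% lower, against 10.9% and 13.1% of all genes.

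Among the ligands, 6 of 19 passed the filter, Wnt4, Wnt5a, Wnt7a, Wnt7b, Wnt9a and Wnt10a. Their median log2 difference was -0.040, with 2 positive and 4 negative. Wnt7a had the highest, 0.17 ± 0.16 (SE), with intensities of 120.8, 123.0 and 152.1 on the fluoxetine-titled and 130.4, 121.1 and 100.6 on the vehicle-titled arrays. Wnt4 and Wnt10a had the lowest, -0.17 each with SE of 0.23 and 0.16, and all 6 overlapped between the groups.

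Among receptors and co-receptors, 8 of 16 passed, with a median log2 difference of 0.029. Fzd6 was highest at 0.21 ± 0.22 (SE) and Fzd7 lowest at -0.25 ± 0.39. Fzd7 passed the filter only through its vehicle-titled mean (39.2 on fluoxetine-titled and 50.1 on vehicle-titled arrays), as did Ryk (45.0 and 50.8). Where both group means had to reach 50, the list median was 0.083. Fzd3, a Frizzled needed for axon tract formation in mice, had 1913, 1443 and 1154 on the fluoxetine-titled and 1734, 1264 and 993.5 on the vehicle-titled arrays, and is named here after its values were seen. Like Frzb it was highest on the arrays numbered 1 and lowest on those numbered 3 in both groups.

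Among other inhibitors at or outside the membrane, 4 of 15 on the array passed. Apcdd1, a membrane protein that binds Wnt and Lrp5, had the highest log2 difference, 0.27 ± 0.17 (SE), with 1712, 1326 and 1483 on the fluoxetine-titled and 1448, 1067 and 1251 on the vehicle-titled arrays. It was higher in all 3 pairs, but the groups overlapped. Znrf3, a ubiquitin ligase that removes Frizzled receptors, had the lowest, 0.0031 ± 0.30, and Dkk1, Dkk2, Dkk4, Sfrp4 and Sfrp5 stayed below the filter. For factors of Wnt secretion and extracellular enhancement, 7 of 11 passed with a median of 0.076, from -0.20 ± 0.18 for Porcn, the acyltransferase that lipidates Wnt proteins, to 0.24 ± 0.25 for the R-spondin receptor gene Lgr4.

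Inside the cell, 13 of 15 cytoplasmic genes passed, with a median log2 difference of -0.024. Axin1, the scaffold of the complex that destroys beta-catenin, had the lowest, -0.30 ± 0.14 (SE, limma adjusted p = 1). Its intensities were 142.0, 157.3 and 180.7 on the fluoxetine-titled arrays and 196.5, 192.7 and 199.6 on the vehicle-titled arrays, without overlap. Beta-catenin itself, Ctnnb1, had the highest difference together with its inhibitor gene Ctnnbip1, 0.11 each with SE of 0.12 and 0.25. Of 11 nuclear factors on the array, which include Tcf and Lef factors, co-activators of beta-catenin and Groucho co-repressors, 8 passed, and 8 had a positive difference, against 47.8% of all genes. Of the 8, 4 were higher in all 3 pairs, against 10.9% of all genes. These 4 were the Groucho genes Tle1, Tle2, Tle3 and Tle4, with log2 differences of 0.22, 0.20, 0.14 and 0.24. Their proteins bind Tcf and Lef factors and repress the targets of those factors. All 4 overlapped between the groups, and they are named after their values were seen. The median of the 8 was 0.17, and it lay between 0.0087 without vehicle-titled array 1 and 0.33 without fluoxetine-titled array 1. Lef1 had the highest difference, 0.28 ± 0.19, with 59.7, 51.8 and 49.5 on the fluoxetine-titled and 37.0, 41.0 and 56.2 on the vehicle-titled arrays, and Pygo2 the lowest, 0.00039 ± 0.16. Lef1 passed the filter only through its fluoxetine-titled mean (53.7 against 44.7).

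Genes that beta-catenin signalling induces as targets or feedback inhibitors had a median log2 difference of -0.0074 over the 8 of 13 that passed, with 4 positive and 4 negative. Axin2, the most used readout of canonical signalling, had 250.1, 373.3 and 307.5 on the fluoxetine-titled and 302.3, 329.6 and 274.3 on the vehicle-titled arrays, a difference of 0.024 ± 0.18 (SE), and is named for that use. Lef1, which is also on this list, was highest. Myc, which passed the filter only through its vehicle-titled mean (49.3 on fluoxetine-titled and 55.1 on vehicle-titled arrays), was lowest at -0.16 ± 0.13, with 51.2, 52.1 and 44.8 on the fluoxetine-titled arrays below the 52.4, 54.5 and 58.3 on the vehicle-titled arrays.

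**Figure D3:**
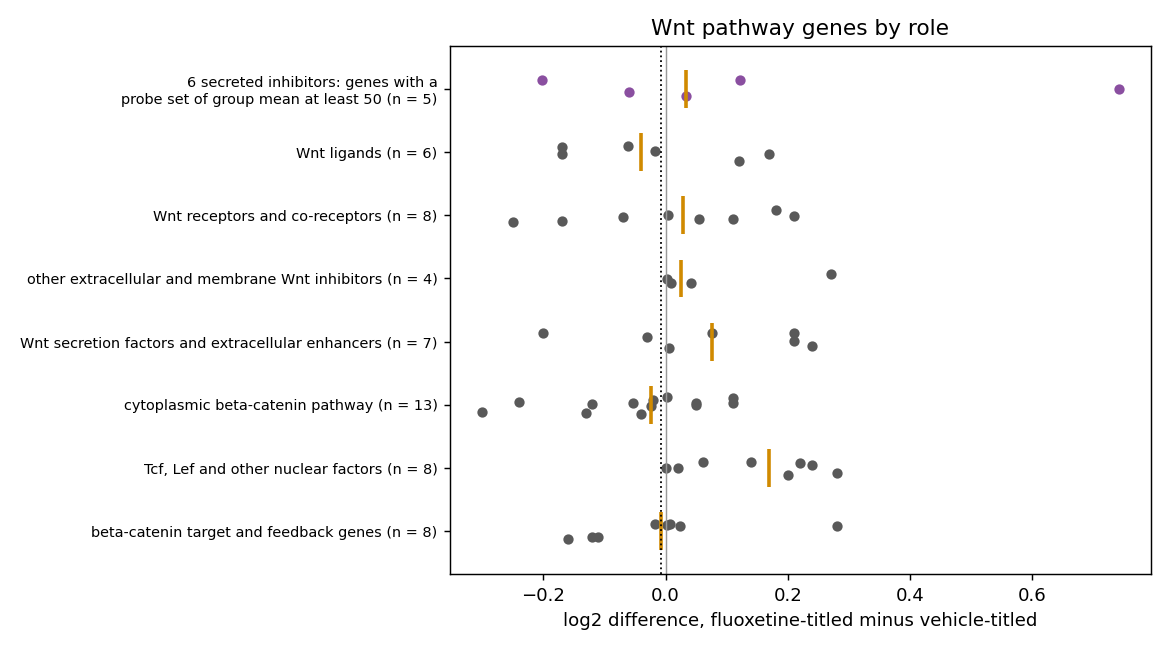
Log2 difference, fluoxetine-titled minus vehicle-titled, of each gene that passed the filter (points), for 5 of the 6 secreted inhibitors and 7 Wnt pathway lists, with list medians as vertical bars and the median of 10830 genes as a dotted line. The 52 pathway genes run from -0.30 to 0.28, and Wif1, placed among the inhibitors because of its difference, is at 0.74.

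Markers of other cell types differed between arrays, and their values stand here beside those of Wif1. Astrocyte markers had pair medians of -0.066, -0.019 and 0.78 on the log2 scale, and microglia markers -0.25, -0.048 and 0.78. The log2 difference of Wif1 in the same pairs was 0.77, 0.73 and 0.72. Whether RNA of glial cells has a part in that difference was not tested. The summed intensity of the 12 astrocyte markers lay between 27840 and 35770 on the fluoxetine-titled and between 19470 and 34680 on the vehicle-titled arrays, which overlap. By list median, vehicle-titled array 3 was lowest for astrocyte, oligodendrocyte, oligodendrocyte precursor, microglia and interneuron markers. It was also lowest for mural (-0.5), meningeal (-0.39) and other cortical projection neuron markers (-0.25). Without this array the log2 difference of Wif1 was 0.70.

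Of the vessel markers past the filter, 4 of 5 mural and 4 of 4 endothelial ones had a positive log2 difference, against 47.8% of all genes. Their medians were 0.28 and 0.27, against -0.0068 over 10830 genes. This lean was not particular to vessel markers. Positive differences were also held by 11 of 12 astrocyte markers (median 0.26), 8 of 9 oligodendrocyte markers (0.15) and 5 of 6 microglia markers (0.16). Of the layer 5 markers 1 of 8 was positive (-0.081). For mural cells, the muscle-like cells and pericytes of vessel walls, 5 of 8 markers passed the filter, and their summed intensity was 1310 to 1540 on the fluoxetine-titled and 861.8 to 1224 on the vehicle-titled arrays, without overlap. That separation came with Acta2 of smooth muscle, which had 538.1, 399.1 and 519.9 on the fluoxetine-titled and 370.2, 272.4 and 268.8 on the vehicle-titled arrays and is named after its values were seen. The other 4 summed to 789.9 to 1141 on the fluoxetine-titled and 593.0 to 919.0 on the vehicle-titled arrays, which overlap, and Cspg4 had a log2 difference of -0.011. The pair medians of all 5 were 0.052, 0.47 and 0.52. For endothelial cells 4 of 9 passed, with sums of 3619 to 5224 and 3228 to 4480 and pair medians of 0.48, 0.49 and -0.049. Among these 4, Abcb1a separated without overlap, as 1.63% of genes did in that direction, and is named after its values were seen. It had 117.6, 84.6 and 84.3 on the fluoxetine-titled and 77.05, 56.7 and 83.0 on the vehicle-titled arrays. For meningeal cells 4 of 8 passed, with sums of 11690 to 14520 and 8668 to 15910. Below the filter were the mural genes Myh11, Tagln and Kcnj8, with log2 differences of -0.0017, 0.15 and 0.14. The endothelial genes Pecam1, Flt1, Kdr, Tek and Cdh5 also missed it, with -0.15, -0.14, 0.1, -0.053 and 0.22. These vessel genes thus went both ways. The meningeal genes Lum, Col1a1, Col1a2 and Col3a1 were below the filter as well. Whether RNA of vessel cells has a part in the difference of Wif1 was not tested.

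**Figure D4:**
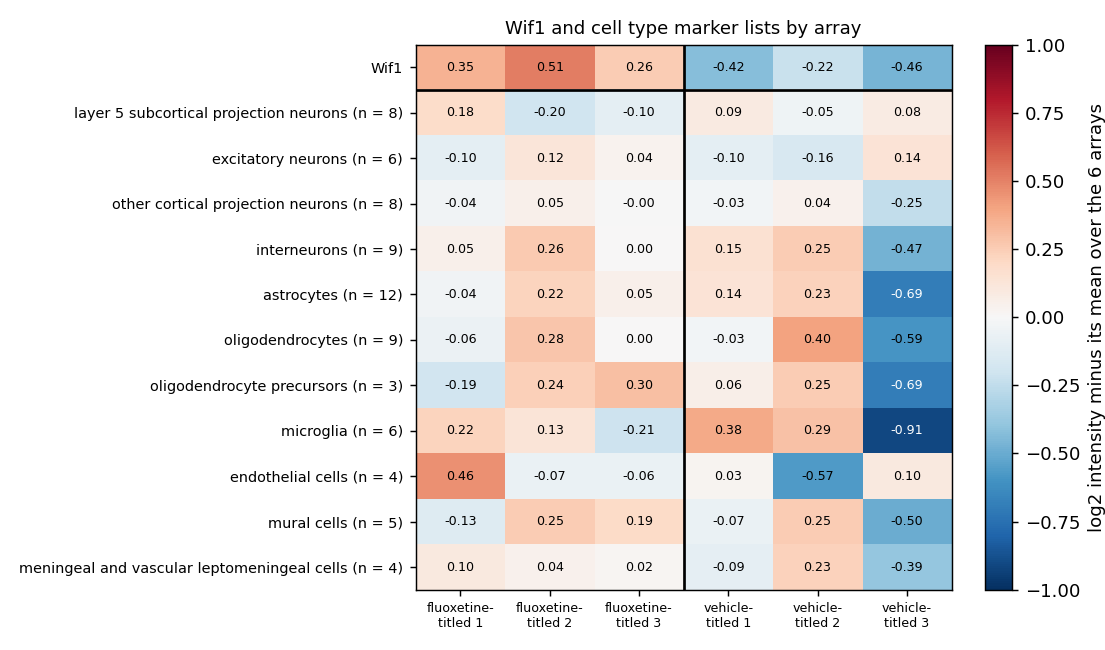
Log2 intensity of Wif1 minus its mean over the 6 arrays (top row) and the same for the median of each cell type marker list with at least 3 genes past the filter (n), in fluoxetine-titled arrays left of the line and vehicle-titled arrays right of it. Wif1 is between 0.26 and 0.51 on the left and between -0.46 and -0.22 on the right. The glial, interneuron, mural, meningeal and other cortical projection neuron lists are lowest on vehicle-titled array 3.

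The genes whose profile over the 6 arrays lay nearest to that of Wif1 were found among 10829 others by the root mean square difference of log2 values, each gene centred on its own mean. They were Ptgr1 (0.12), Pcolce (0.14), Ptpn13 (0.17), Lamb2 (0.17) and Olfml3 (0.18), against a median of 0.43 over all genes. Ptgr1, a reductase of prostaglandins and leukotrienes, had 86.0, 100.1 and 100.1 on the fluoxetine-titled and 53.3, 71.7 and 55.2 on the vehicle-titled arrays. Pcolce, which enhances the processing of procollagen, had 237.1, 275.8 and 239.1 on the fluoxetine-titled and 176.5, 202.6 and 138.8 on the vehicle-titled arrays. Being near Wif1 implies a separation by group, so that feature of these genes is not a separate result. Unlike Wif1, all 5 had their largest log2 difference in pair 3, 0.86 for Ptgr1, 0.78 for Pcolce, 0.79 for Ptpn13, a tyrosine phosphatase, 0.80 for the laminin chain gene Lamb2 and 0.79 for the secreted olfactomedin-like gene Olfml3.

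**Figure D5:**
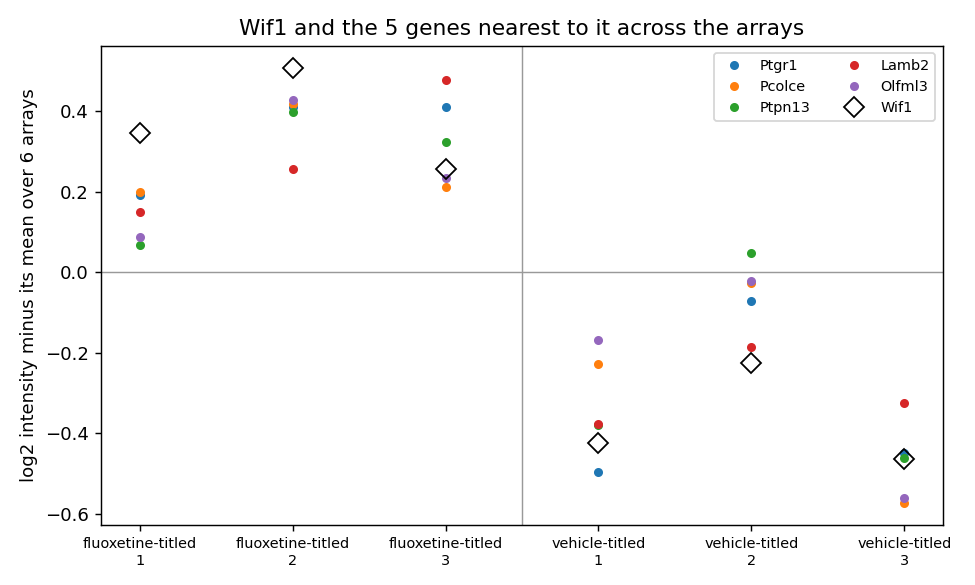
Log2 intensity minus the mean over the 6 arrays for Wif1 (open diamonds) and the 5 genes nearest to it (coloured points), fluoxetine-titled arrays left of the line. All 6 genes lie above 0 on the 3 fluoxetine-titled arrays.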

How the data were processed

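The deposited table holds an intensity for each probe set on each array. Per the submitters' processing notes these come from GCRMA, which corrects background from probe sequence and normalizes between arrays, in a version not given in the sources used here. Per the labels' protocols, the RNA (15 ng) was amplified in rounds before labelling. The design text speaks of averaged replicates, but the table has 1 column per array. The published probe set table it recommends is not used here.

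Of 45101 probe sets, 64 controls were removed, and 19073 with a group mean of at least 50 were kept. Log2 intensities were fitted with limma 3.58.1 (R 4.3.3), two-sided, Benjamini-Hochberg over all kept, with code tested on simulated data. Symbols came from the platform annotation (34945 probe sets with 1 symbol, 932 with several, 9160 not listed), and the brightest kept probe set stood for a gene outside the members.

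Named by rule are the members, the extremes and non-overlapping genes of each Wnt list past the filter, and the 5 genes nearest Wif1. Other genes are named to say which passed or missed the filter, for their known use, or after their values were seen. Members and lists were chosen with earlier results of these data known. Equal replicate numbers pair the arrays: deviations from group means correlated at 0.74, 0.60 and 0.50 for pairs 1, 2 and 3. Between arrays of unlike number they ran from -0.59 to -0.41 with number 1, and were 0.11 and 0.26 between numbers 2 and 3. Numbers 2 and 3 are thus less clearly told apart than number 1. What the numbers mean is not labelled. Alternatives were the replicate block, other filters, a floor, quantile normalization, a variance trend, array weights and leaving out arrays or pairs, and, chosen after seeing the data, the mural sum without Acta2. The number of arrays limits precision, and p-values measure the spread between these purifications.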

Additional observations from a re-analysis of the deposited data

How the results depend on the processing

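In limma 0 probe sets passed the threshold under all 16 alternatives, with 52 to 920 at an unadjusted p under 0.05. With the replicate number as a block the log2 difference of Wif1 was again 0.741 (adjusted p = 0.993), and the block changed no call. Wif1 kept its sign under the 13 alternatives in which it was tested, between 0.695 and 0.814 with arrays or pairs left out, and 0.0521 with values under 50 set to 50. It fell out of the test where both group means had to reach 50, and without fluoxetine-titled array 2 or pair 2, where the unfiltered differences were 0.673 and 0.746. Sfrp1 (brightest probe set) lay between -0.328 and -0.0769 and the 2 Dkk3 probe sets between 0.0732 and 0.261 under all 16. The sign turned for Frzb with array weights (-0.0205) and with arrays left out (-0.0986 to 0.156), and for Dkkl1 with arrays or pairs left out (-0.268 to 0.121), and the cause was not tested. Of the list medians, that of the nuclear factors moved most often (5 of 16 alternatives). The lowest fluoxetine-titled sum of mural markers minus the highest vehicle-titled one was 85.5, and -129 without Acta2, a choice made after seeing the data. Signals of Wif1 and of 6 probe sets below 50 are near background, where GCRMA values are least certain, and 3 arrays a group limit all intervals.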

Other observations

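Below the filter, 43 further Wnt pathway genes were on the array, 21 of them under an intensity of 20 on all 6 arrays. Every fluoxetine-titled value lay above every vehicle-titled one for 2 of the 43 and below for 4. The shares over all 45037 probe sets are 1.48% and 6.08%, and those over probe sets kept 1.64% and 2.01%. The share of all-below probe sets under the filter alone is thus higher than 6.08%, and the count of 4 is not read as raised. The receptor gene Fzd5 had 46.3, 40.6 and 38.6 on the fluoxetine-titled and 29.1, 37.2 and 28.2 on the vehicle-titled arrays. Sfrp5, a further secreted Frizzled-related gene, had 29.6, 17.0 and 16.8 on the fluoxetine-titled and 16.7, 14.0 and 16.4 on the vehicle-titled arrays. Its fluoxetine-titled array 1 stood far above the rest, and the lowest fluoxetine-titled value (16.77) lay just above the highest vehicle-titled one (16.71). Fzd10 had 17.8, 13.7 and 17.8 on the fluoxetine-titled and 17.9, 23.5 and 22.3 on the vehicle-titled arrays. Dkk1, Dkk4 and Wnt8b, the other 3, stayed at or below 15.8. None of these was tested.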
